A study of Homo sapiens with 3 samples.

Results

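The protocadherin beta genes lie side by side at 5q31, and 10 of them were described here: PCDHB2, PCDHB3, PCDHB4, PCDHB5, PCDHB6, PCDHB7, PCDHB8, PCDHB10, PCDHB13 and PCDHB14. A gene was taken as measured where a probe set, the group of short probes that reads a transcript, names that gene and no other in the array annotation. By this rule 9 of the 10 genes were measured, by 14 of 54675 probe sets, and they stand among 19775 genes measured in the same way. PCDHB10 has no probe set of its own, and is covered only by a probe set that also names PCDHB9.

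Gene expression was measured in the untreated neuroblastoma cell lines NGP and IMR-32, and in an untreated pool of 16 different cancer cell lines as the reference, with 1 Affymetrix U133 Plus 2.0 array for each. The study set the lines against the pool to find expression changes that go with DNA copy number, and the copy number data were not analysed here. Each line stands for itself alone, the lines in the pool are not named in the labels, and without a second array no difference has a replicate check, an error or a p-value.

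Clustered protocadherins are cadherin-type adhesion proteins of the cell surface, best known from neurons, where combinations of alpha, beta and gamma isoforms let a cell tell its own processes from those of its neighbours. Each beta gene has its own promoter and encodes its whole protein in a single large exon, while the alpha and the gamma genes splice their variable exons to shared constant exons. Single neurons use only some of these promoters, a choice that involves CTCF, cohesin and DNA methylation, and dense methylation of beta promoters has been described in neuroblastoma tumours.

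The beta promoters carry a short conserved element that contains CGCT, which is shown here because it is the sequence the members share around their starts. RefSeq promoter sequences (GRCh38.p14, 250 bases before and 50 after the start of each gene) were at hand for 9 members, PCDHB10 included and PCDHB6 not. The longest word present in all 9 was the 9-base GGTGGCGCT, which occurs once in each promoter on the strand of the gene and on the other strand in none. It is printed in capitals within 59 bases of the + strand, 5′ to 3′, for each gene.
PCDHB2 (chr5:141094530-141094588): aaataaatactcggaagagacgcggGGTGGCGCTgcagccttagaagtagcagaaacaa
PCDHB3 (chr5:141100379-141100437): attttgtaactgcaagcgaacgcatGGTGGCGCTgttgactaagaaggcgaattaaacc
PCDHB4 (chr5:141121709-141121767): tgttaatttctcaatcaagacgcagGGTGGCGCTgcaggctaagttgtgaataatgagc
PCDHB5 (chr5:141135165-141135223): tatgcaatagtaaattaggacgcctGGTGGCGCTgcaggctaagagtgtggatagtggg
PCDHB7 (chr5:141172552-141172610): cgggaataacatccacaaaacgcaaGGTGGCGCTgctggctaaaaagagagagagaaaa
PCDHB8 (chr5:141177763-141177821): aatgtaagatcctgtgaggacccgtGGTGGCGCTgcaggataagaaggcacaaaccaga
PCDHB10 (chr5:141192285-141192343): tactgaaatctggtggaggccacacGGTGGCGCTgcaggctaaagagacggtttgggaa
PCDHB13 (chr5:141213851-141213909): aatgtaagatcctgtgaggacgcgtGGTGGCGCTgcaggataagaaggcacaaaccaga
PCDHB14 (chr5:141223249-141223307): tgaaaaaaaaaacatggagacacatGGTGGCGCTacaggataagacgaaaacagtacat

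The first base of the word lay 84 bases before the start of the gene in PCDHB4, 69 in PCDHB3 and in PCDHB14, 67 in PCDHB7, 60 in PCDHB2, 43 in PCDHB10 and in PCDHB13, 16 in PCDHB5 and 2 in PCDHB8. In PCDHB8 the word therefore runs across the annotated start. Since the word was picked for being shared, its presence in all 9 is no finding. Searched on both strands, GGTGGCGCT is found in 176 of 35116 promoters of the same length (0.501%), and in 163 of the 35064 outside the clustered protocadherins (0.465%). Among beta genes that did not enter the choice, PCDHB9, PCDHB12, PCDHB15 and PCDHB16 carry it and PCDHB1 does not, which is 4 of 5. It is in 0 of 13 alpha and 0 of 25 gamma promoters. The core CGCT alone is in 70.0% of all promoters. Around the word, the windows of all 9 members also share C at positions 21 and 23, G at 38, T at 41 and A at 43, counted from 1 at the 5′ end of the window.

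Beyond the element the windows differ. Compared base by base without gaps over all 59 bases, the 36 pairs were identical at 47.5% to 98.3% of positions, with a median of 54.2%. These shares count the 9 bases of the word, which are identical by choice, so identity outside the word is lower. PCDHB8 and PCDHB13 are the closest pair, with 58 of 59 bases identical and the single substitution C22G, the base of PCDHB8 being given first, and the next closest pair reached 64.4%. The number of CpG sites, the targets of DNA methylation, was between 5 in PCDHB10 and 12 in PCDHB3 and PCDHB4 per 300 bases, with a median of 9 over the members and of 14 over all promoters. DNA methylation was not analysed here. The genes themselves are near copies of each other, so that probes for one can bind transcripts of another, and single-gene values are uncertain to that extent. The 4 probe sets whose names end in _x_at are those for which the maker of the array expects such binding.

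The values are MAS5 signals on a linear scale, with a trimmed mean of 500 on each array and medians of 98.8 in NGP, 89.9 in IMR-32 and 119 in the pool. The beta transcripts gave low to moderate signals. Of the 14 probe sets, 9 were at or above the median of the array in NGP, 8 in IMR-32 and 4 in the pool. On all 3 arrays together this held for 3 probe sets, and for 4 it held on no array. A probe set below the median of an array is called dim there, and the only gene dim on every array was PCDHB8. Signals of different probe sets cannot be ranked against each other, since each set of probes binds with its own strength.

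**Figure D1:**
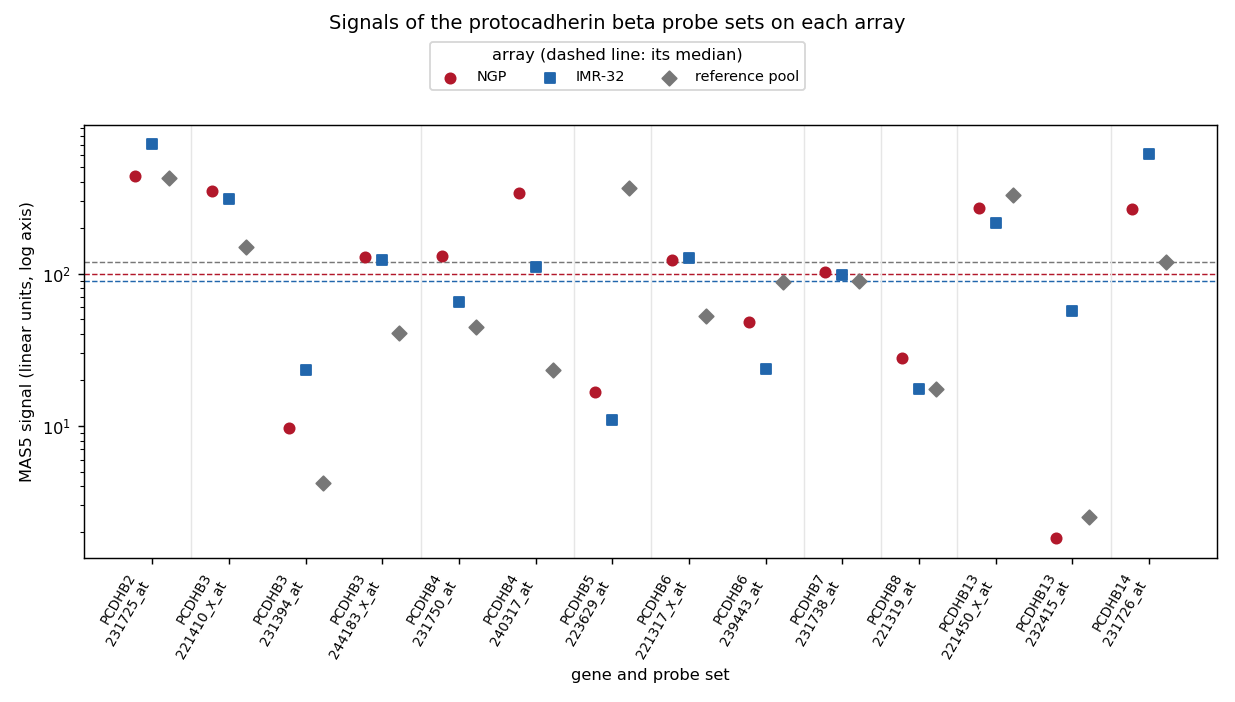
MAS5 signal (log axis) of the 14 probe sets of the 9 measured protocadherin beta genes in NGP, IMR-32 and the reference pool, 1 point per array, with dashed lines at the array medians of 98.8, 89.9 and 119. PCDHB5 is the gene whose lines both lie far below the pool, at 16.8 and 11.0 against 368, and PCDHB14 and 1 probe set of PCDHB13 are highest in IMR-32.

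Log2 ratios of line over pool were formed for each probe set, and their median was the value of a gene. As in the methods of the study, a gene was called overexpressed if it stood among the highest 7% of genes by this value and underexpressed if among the lowest 7%. These cut-offs were 1.84 and -2.88 for NGP over the pool, 1.68 and -2.83 for IMR-32 over the pool, and 1.95 and -1.84 when NGP was set against IMR-32. By construction 7% of genes (1384 of 19775) are called in each direction. Where a gene has several probe sets, their ratios scattered around each other with a standard deviation of 1.41, 1.31 and 1.28 in these comparisons, which is the only measure of scatter that the arrays offer. NGP and IMR-32 are read against the same pool array, so an error in that array enters both.

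The beta genes did not move as a block. In NGP over the pool, 1 of 9 was overexpressed (PCDHB4) and 1 of 9 underexpressed (PCDHB5), and 7% of all genes are called in each direction. In IMR-32 over the pool, 2 of 9 were overexpressed (PCDHB13 and PCDHB14) and 1 of 9 underexpressed (PCDHB5), against the same 7% in each direction. With 9 genes, 1 or 2 calls are too few to set against that share. The median log2 ratio of the members was 0.20 in NGP and 0.72 in IMR-32, against -0.22 and -0.23 over all genes. Ratios above 0 were found for 7 of 9 members in each line, 6 of them in both, while 42.3% of all genes were above 0 in NGP and 41.6% in IMR-32. The standard deviation over the members was 1.95 in NGP and 2.22 in IMR-32, against 1.67 and 1.60 over all genes.

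**Figure D2:**
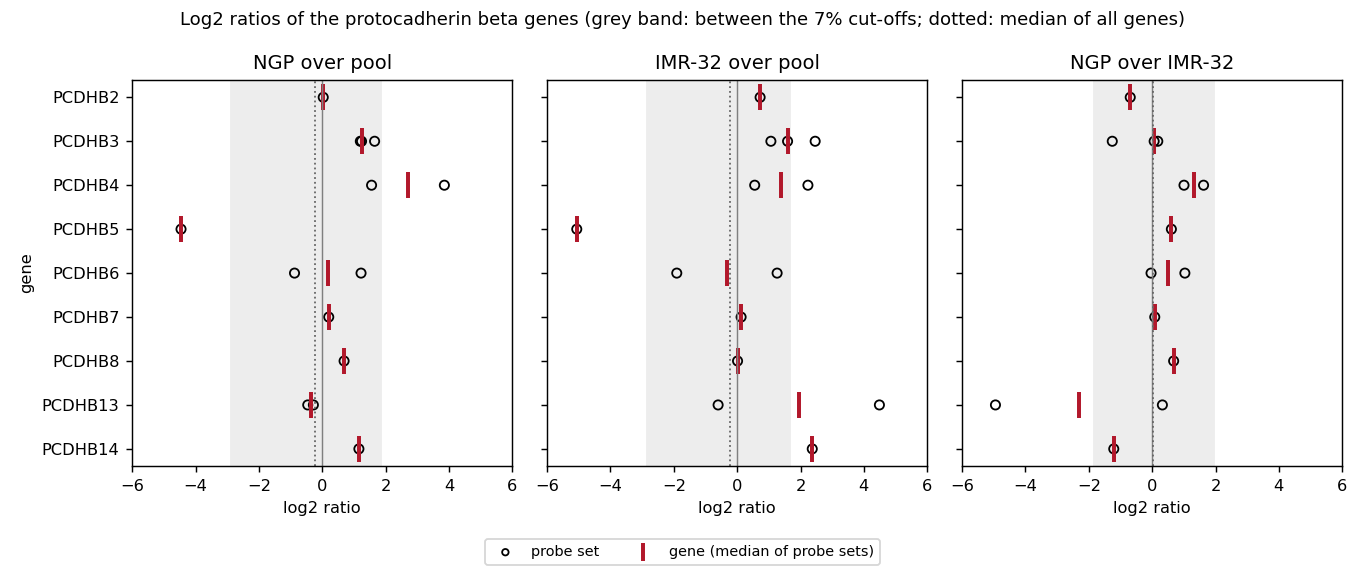
Log2 ratios of the 9 measured protocadherin beta genes for each line over the pool and for NGP over IMR-32, with open circles for probe sets, red bars for the gene (median of its probe sets), a grey band between the 7% cut-offs and a dotted line at the median of all genes. PCDHB5 lies left of the band over the pool in both lines, and the probe sets of PCDHB13 lie far apart in IMR-32, at -0.60 and 4.49.

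PCDHB5 was far lower in both neuroblastoma lines than in the pool. Its probe set read 16.8 in NGP and 11.0 in IMR-32, against 368 in the pool. Both lines were dim and the pool was above its median. The log2 ratio was -4.46 in NGP (22.0-fold lower) and -5.06 in IMR-32 (33.5-fold lower), and 2.28% and 1.30% of all genes were as low or lower. The log2 ratio of NGP over IMR-32 was 0.61, a difference between dim signals. The pool signal is an average over its lines, so a high level in a few of them and a moderate level in many cannot be told apart, just as fewer cells of a type and less RNA per cell cannot be told apart in any of these bulk samples.

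PCDHB4, the gene next to PCDHB5 on the chromosome, was highest in NGP by both of its probe sets. The first read 338 in NGP and 110 in IMR-32, against 23.4 in the pool (14.5-fold and 4.70-fold higher). The other read 131 in NGP and 65.2 in IMR-32, against 44.5 in the pool (2.94-fold and 1.47-fold higher). The pool was dim on both probe sets, and IMR-32 on the latter, so the folds are set against dim signals. Both probe sets thus gave the same order of the 3 samples, with sizes that differed. The gene value was a log2 ratio of 2.71 in NGP, where 2.97% of all genes were as high or higher, and 1.39 in IMR-32, short of the cut-off. With the brightest probe set alone, or with dim probe sets left out, the IMR-32 value was 2.23 and was called overexpressed. The log2 ratio of NGP over IMR-32 was 1.31, with both probe sets above 0 and no call.

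PCDHB14 was highest in IMR-32. Its probe set read 264 in NGP and 613 in IMR-32, against 119 in the pool. The pool lay just below its array median and both lines lay above theirs. The log2 ratio over the pool was 2.37 in IMR-32 (5.17-fold higher), and 1.16 in NGP (2.23-fold higher), and in IMR-32 3.20% of all genes were as high or higher. The log2 ratio of NGP over IMR-32 was -1.21, a 2.32-fold lower level in NGP that was not called, except with log2(signal + 32), where it was -1.12 and underexpressed.

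PCDHB13 was called overexpressed in IMR-32, at 1.94, on probe sets that disagree. One probe set read 1.83 in NGP and 56.5 in IMR-32, against 2.52 in the pool, and was dim on every array. Its log2 ratios were -0.46 in NGP and 4.49 in IMR-32. The other, an _x_at probe set, read 271 in NGP and 217 in IMR-32, against 329 in the pool, and was above the median on every array. Its log2 ratios were -0.28 and -0.60, so the brighter reading was lower in both lines than in the pool. For NGP over IMR-32 the dim probe set gave -4.95 and the bright one 0.32, and the gene value of -2.31 was the single underexpressed call among the members in that comparison (0 of 9 overexpressed, 7% of genes called in each direction).

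PCDHB3 was higher in both lines by all 3 of its probe sets. The brightest, an _x_at probe set, read 351 in NGP and 311 in IMR-32, against 149 in the pool. The second, also _x_at, read 128 in NGP and 122 in IMR-32, against 40.6 in the pool. The third was dim on every array, at 9.71 in NGP and 23.2 in IMR-32, against 4.22 in the pool. The lines lay above the pool in each case, with a gene value of 1.24 in NGP and 1.59 in IMR-32, where the cut-off was 1.68. The IMR-32 value passed the cut-off in 4 of 10 alternatives, among them quantile normalization (2.01) and _x_at probe sets left out (2.46). NGP over IMR-32 was 0.06.

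PCDHB2 and PCDHB7, with 1 probe set each, stayed near the pool. PCDHB2 read 437 in NGP and 706 in IMR-32, against 428 in the pool, and was above the median on every array. Its log2 ratios were 0.03 and 0.72 over the pool and -0.69 for NGP over IMR-32. PCDHB7 read 103 in NGP and 97.5 in IMR-32, against 89.6 in the pool, with log2 ratios of 0.20 and 0.12. All of these are smaller than the scatter between probe sets of a gene.

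PCDHB6 had probe sets with opposite signs. The _x_at probe set read 123 in NGP and 126 in IMR-32, against 52.7 in the pool, so the lines were higher (log2 ratios 1.22 and 1.26). The other was dim on every array, at 48.2 in NGP and 23.5 in IMR-32, against 88.3 in the pool, so the lines were lower (-0.88 and -1.91). The gene values of 0.17 in NGP and -0.32 in IMR-32 lie between these readings. PCDHB8 was dim throughout, at 28.0 in NGP and 17.5 in IMR-32, against 17.4 in the pool, and its log2 ratios of 0.69 and 0.01 are differences between dim signals.

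The probe set shared by PCDHB9 and PCDHB10 was bright on every array. It read 957 in NGP and 651 in IMR-32, against 238 in the pool (4.02-fold and 2.74-fold higher). The log2 ratios were 2.01 in NGP and 1.45 in IMR-32, and 0.56 for NGP over IMR-32. A probe set that names PCDHB9 alone read 33.6 in NGP and 106 in IMR-32, against 173 in the pool, with log2 ratios of -2.36 and -0.70. The shared and the unshared probe set thus ran in opposite directions in both lines. How much of the shared signal comes from PCDHB10 was not tested.

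Over all genes, NGP and IMR-32 were closer to each other than either was to the pool, with a standard deviation of 1.37, against 1.67 and 1.60. The members had a median of 0.08 in NGP over IMR-32, against 0.02 over all genes, and a standard deviation of 1.12, against 1.37. Over the pool the members had standard deviations of 1.95 in NGP and 2.22 in IMR-32. That difference rests mainly on PCDHB5, at -4.46 and -5.06 over the pool and 0.61 in NGP over IMR-32, so it is no trait of the beta genes as a group. Within 1 log2 unit of 0 lay 6 of 9 members, and 66.9% of all genes. The 3 probe sets above the median on all arrays, of PCDHB2, PCDHB3 and PCDHB13, gave -0.69 to 0.32. The 4 _x_at probe sets lay between -0.04 and 0.32, while the other 10 spread from -4.95 to 1.62. Whether binding of several beta transcripts narrows the _x_at readings was not tested.

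The cluster holds 19 beta genes and pseudogenes in the gene table, of which 17 were measured, and the members are spread along most of its length. Adjacent genes often had different ratios. PCDHB5, whose log2 ratio was -4.46 in NGP and -5.06 in IMR-32, lies between PCDHB4 (2.71 and 1.39) and PCDHB6 (0.17 and -0.32). Towards the far end, PCDHB11, PCDHB13, PCDHB14 and the pseudogene PCDHB18P were overexpressed in IMR-32, at 1.94 to 2.37, while PCDHB12 among them was at -0.05 and PCDHB15, the last gene, at -1.75. Of the overexpressed genes, PCDHB11 was dim on every array, and the probe sets disagreed for PCDHB13 (4.49 and -0.60) and PCDHB18P (4.05 and -0.08).

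**Figure D3:**
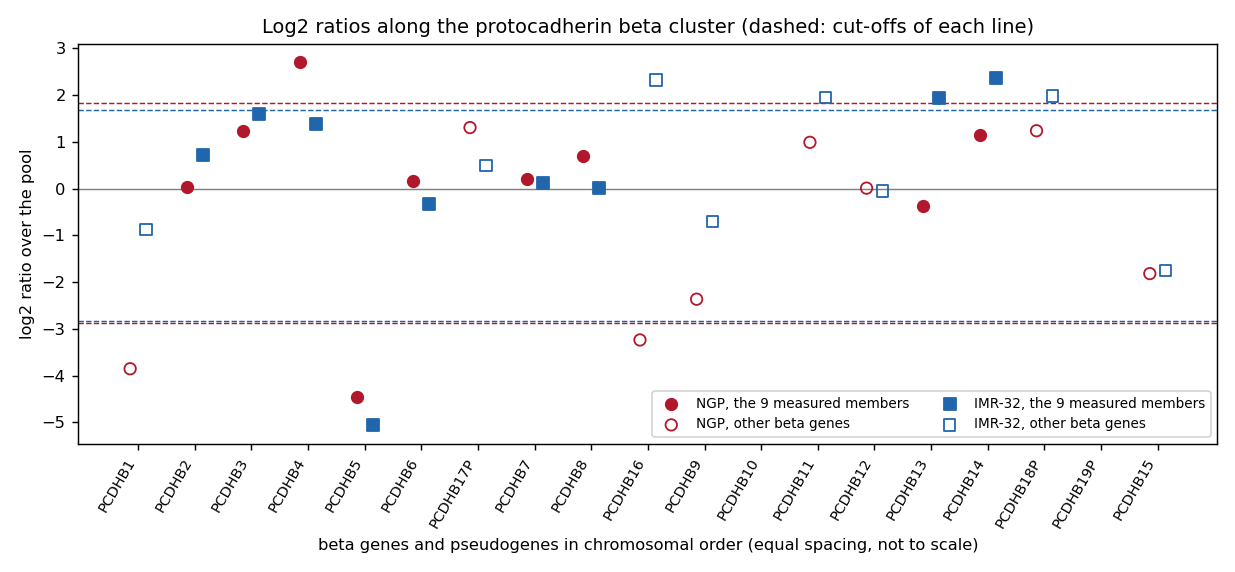
Log2 ratio over the pool of the beta genes and pseudogenes in chromosomal order (equal spacing), as red circles for NGP and blue squares for IMR-32, filled for the 9 measured members and open for other beta genes, with dashed lines at the cut-offs. High and low values lie side by side, as at PCDHB4 (2.71 in NGP) and PCDHB5 (-4.46), and PCDHB10 and PCDHB19P have no value.

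Among the beta genes outside the list, the lines differed most in PCDHB16, which read 13.0 in NGP and 611 in IMR-32, against 122 in the pool. It was underexpressed in NGP (-3.24), overexpressed in IMR-32 (2.32) and 47.0-fold lower in NGP than in IMR-32 (-5.56). PCDHB1, the gene at the near end of the cluster, read 8.65 in NGP and 67.9 in IMR-32, against 125 in the pool, and was underexpressed in NGP (-3.85). The 8 measured genes of this kind had medians of -0.90 in NGP and 0.22 in IMR-32. Of these, 0 and 3 were overexpressed and 2 and 0 underexpressed, while 7% of all genes are called in each direction. On every array 3 of the 8 were dim, among them PCDHB11, which was overexpressed in IMR-32.

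The alpha and gamma clusters were read in part by probe sets that name several genes. Of 6 alpha genes with a probe set of their own, 0 were overexpressed in NGP and 1 in IMR-32 (PCDHAC2, at 3.58), and 0 were underexpressed in either. Their medians were 0.36 and -0.36. Of 13 gamma genes, 4 were overexpressed in NGP and 3 in IMR-32, with medians of 0.69 and -0.10, and 7 of the 13 were dim on every array. Of all genes, 7% are called in each direction. The overexpressed gamma genes were all dim on every array, except PCDHGC3 in NGP. Its bright probe set gave 0.22 there and its dim one 4.33. The 3 probe sets that each name 15 alpha genes were higher in both lines, with log2 ratios of 0.37 to 2.31 in NGP and 0.99 to 2.40 in IMR-32. The other 3 shared alpha probe sets, which name 2 genes each, were higher in NGP (0.40 to 2.99) and lower in IMR-32 (-2.79 to -1.27) than in the pool. All their signals were dim except 138 for 1 of them in NGP, so the ratios in IMR-32 are differences between dim signals.

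The non-clustered protocadherins, adhesion proteins of the same family whose genes lie outside the clusters, were read by probe sets of their own. Of 11 measured, 6 were overexpressed in NGP and 3 in IMR-32, while 7% of all genes are called in each direction. Their medians were 2.01 and 0.98, and the difference from the beta members was not tested. Of the 11 genes, 3 were dim on every array, among them PCDH15, which was overexpressed in NGP. The probe sets of PCDH10, overexpressed in IMR-32, reached from -5.31 to 2.17 there. PCDH8 had the highest log2 ratio of the 11 genes in both lines (4.60 and 5.07). Its signals were 535 in NGP and 743 in IMR-32, against 22.1 in the pool. PCDH17 separated the lines, with a log2 ratio of 4.06 in NGP and of -1.99 in IMR-32. The 19 listed genes beside or between the protocadherin clusters include HARS1, encoding histidyl-tRNA synthetase, and TAF7, a subunit of the general transcription factor TFIID. These 19 had 0 calls in any comparison, while 7% of all genes are called in each direction. The medians of the 19 genes were -0.30 in NGP and -0.20 in IMR-32, close to those of all genes. TAF7 was highest in IMR-32, at 1.53. The difference between these genes and the beta members was not tested.

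**Figure D4:**
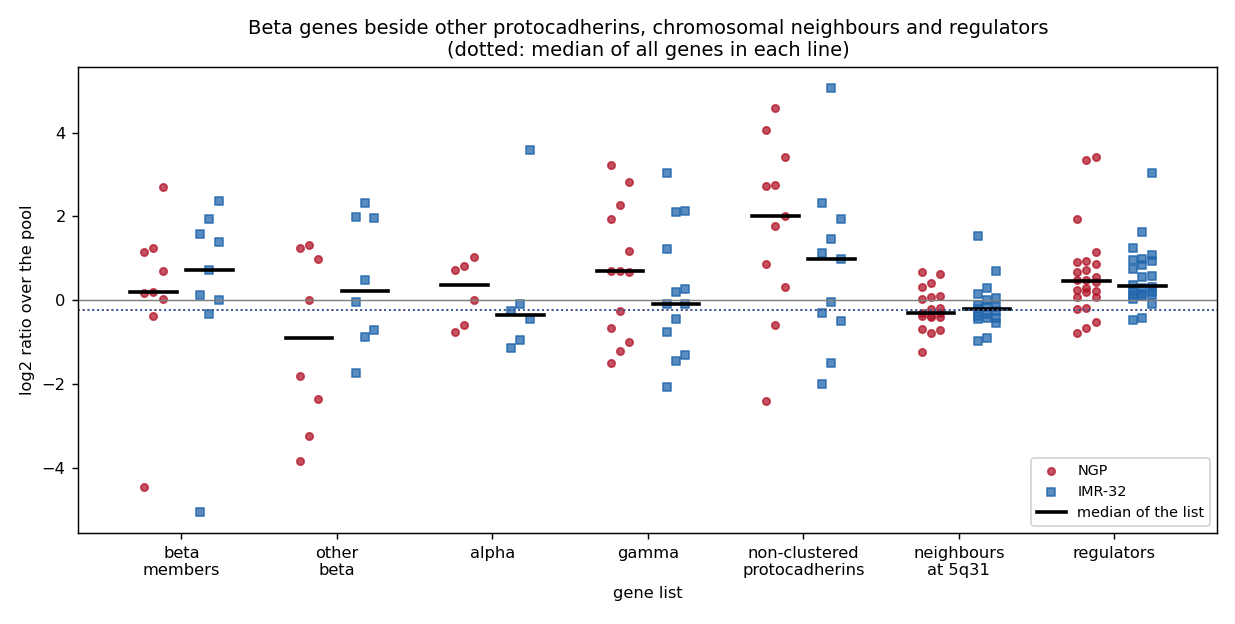
Log2 ratio over the pool of single genes in NGP (red circles) and IMR-32 (blue squares) for the 9 beta members and for lists of other beta, alpha, gamma and non-clustered protocadherins, genes at 5q31 and regulators, with black bars at list medians and dotted lines at the medians of all genes. The beta members reach from -4.46 to 2.71 in NGP and from -5.06 to 2.37 in IMR-32, and the 19 neighbours at 5q31 from -1.25 to 1.53. The difference in spread was not tested.

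Factors known to act on clustered protocadherin promoters were mostly a little above the pool. Of 24 measured, 19 had log2 ratios above 0 in NGP and 21 in IMR-32, with medians of 0.45 and 0.34. CTCF, which binds these promoters, had a log2 ratio of 0.30 in NGP and of 0.85 in IMR-32, and the cohesin subunit RAD21 was at 0.06 and 0.14. TET1, an enzyme that oxidises methylated cytosine, was overexpressed in both lines (3.42 and 3.03), on 2 probe sets that lay far apart. These gave 1.23 and 5.60 in NGP and 1.06 and 5.01 in IMR-32, the lower reading falling short of the cut-off in each line. TET2, a relative of TET1, was overexpressed in NGP (3.35, but -0.14 by its 1 probe set that is not dim). The DNA methyltransferase DNMT3A was overexpressed in NGP as well (1.94, against 1.62 in IMR-32). Its 3 probe sets reached from 0.63 to 2.47 in NGP and from -1.78 to 2.06 in IMR-32. DNMT3B, the other methyltransferase that sets new marks, was at -0.19 and 0.19, and SMCHD1, a silencer of the clusters, at 0.73 and 0.09. Of 10 measured genes whose products act in protocadherin signalling, the Src-family kinase FYN was overexpressed in both lines (2.43 and 2.91) and the receptor tyrosine kinase RET in NGP (2.27, against -2.60 in IMR-32).

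The labels of the lines were checked on marker genes. Of 13 measured sympathoadrenal genes, 9 were overexpressed in NGP and 7 in IMR-32, among them PHOX2A (3.86 and 3.26). In IMR-32, 4 of the 13 lay below the pool, TH (-1.40), GATA2 (-1.34), DBH (-0.33) and CHGB (-0.01), and TH, the first enzyme of catecholamine synthesis, was 42.6-fold higher in NGP than in IMR-32. Of 16 measured markers of epithelial, blood, pigment and connective tissue cells, 6 were underexpressed in NGP and 7 in IMR-32 and 1 was overexpressed in NGP, the pigment cell gene PMEL (log2 ratio 2.30). All 5 epithelial genes were underexpressed in both lines, with the adhesion gene EPCAM reading 17.2 in NGP and 41.0 in IMR-32, against 7157 in the pool. The pool thus carried far more epithelial transcript than the lines, and the part of this difference in makeup in the beta ratios was not tested.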

How the data were processed

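Expression in NGP, IMR-32 and a pool of 16 cancer cell lines was measured on 1 Affymetrix U133 Plus 2.0 array each. The deposited values are signal intensities that the authors made with the MAS5 algorithm, on a linear scale. The software version was not given in the sources used here.

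From these, 62 control probe sets were left out. The annotation names 1 gene for 41091 probe sets, several for 1801 and none for 11721, and 41037 were matched by gene ID to RefSeq (GRCh38.p14). Log2 ratios were taken without a pseudocount, the median over probe sets was the gene value, and the top and bottom 7% of 19775 genes were called (1384 genes at each end). No p-value was computed, and the number of arrays limits the precision. The gene list, the comparison lists and the marker genes were chosen with earlier results of these data known. All members and the genes of these lists could be named. The scheme was tested on simulated data, with less scatter between probe sets than on these arrays and the same change in every probe set of a gene. That test therefore cannot speak for genes whose probe sets disagree. Alternatives were median-centred ratios, quantile normalization, log2(signal + 32), leaving out dim probe sets (of the signals compared, the higher fell short of the median of its own array), the brightest probe set (highest mean log2 signal), the mean over probe sets, no _s_at or _x_at probe sets, the top 5% or 10%, and cut-offs over all probe sets. Python 3.11.15, numpy 2.4.6, pandas 2.3.3 and matplotlib 3.10.9 were used.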

Additional observations from a re-analysis of the deposited data

Results flagged for a closer look

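PCDHB13 had opposite signs in the lines, with a log2 ratio over the pool of -0.37 in NGP and 1.94 in IMR-32, and the difference was not tested. The value of IMR-32 rests on the dim probe set (56.5 in IMR-32), since the bright one was below the pool in both lines.

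PCDHB16, a beta gene outside the list, also had opposite signs, with -3.24 in NGP and 2.32 in IMR-32 on 1 probe set. This difference was not tested either.

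The probe set that names PCDHB9 and PCDHB10 together enters no gene value, and it was above the pool in both lines, at 2.01 in NGP and 1.45 in IMR-32.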

How the results depend on the processing

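With 1 array for each sample, no alternative could leave out a replicate, and no paired analysis was possible because there are no replicates to pair. Of 266 member values under the 10 alternatives, 250 kept their call and 252 their sign. Part of this was fixed in advance. Changing only the cut-offs leaves each value and its sign unchanged. Median-centring shifts the values and the cut-offs alike, so no call could change there. A gene with 1 probe set keeps its ratio whether probe sets are averaged or the brightest is taken. With 1 or 2 probe sets the mean equals the median, so averaging could move only the value of PCDHB3. PCDHB4 in NGP (1.92 to 3.85), PCDHB14 in IMR-32 (2.10 to 2.60) and PCDHB5 in NGP (-4.46 to -3.04) and IMR-32 (-5.06 to -3.22) kept their calls under all 10. The overexpressed members in IMR-32, 2 as reported, numbered 1 with log2(signal + 32), 1 in the top 5%, 1 with cut-offs over all probe sets, 4 in the top 10%, and 3 with quantile normalization, with the mean over probe sets and without _s_at and _x_at probe sets, where PCDHB3 was added. With dim probe sets left out or the brightest probe set, the 2 were PCDHB4 (2.23) and PCDHB14. PCDHB13 kept its call in 5 of 10 alternatives in IMR-32 over the pool and in 7 of 10 in NGP over IMR-32. With log2(signal + 32) the single underexpressed member in NGP over IMR-32 was PCDHB14 (-1.12) in place of PCDHB13. With dim probe sets left out, and likewise with the brightest probe set, its sign turned to -0.60 in IMR-32 over the pool and 0.32 in NGP over IMR-32, since the dim probe set no longer counted, and the underexpressed members in NGP over IMR-32 numbered 0. The same alternatives moved the members' median in NGP over the pool to 0.68 and 0.69. Counting the PCDHB9 and PCDHB10 probe set as PCDHB10, an alternative chosen after seeing the data, gave 2 overexpressed members in NGP. Once dim probe sets are left out, PCDHB8 has no value, and PCDHB5 none in NGP over IMR-32. Signals below the array median limit PCDHB5 in the lines, PCDHB4 in the pool and the dim readings of PCDHB3, PCDHB6 and PCDHB13.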
